A study of Mus musculus with 5 samples.

Results

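The genes described here are those that make small RNAs and load them into Argonaute proteins. They were chosen by name, as the mouse Argonautes and the core proteins that cut, export and bind microRNA precursors, and number 10 of the 55487 genes in the counts table. The members are *Drosha* and *Dgcr8*, *Xpo5*, *Dicer1* with *Tarbp2* and *Prkra*, and the Argonautes *Ago1*, *Ago2*, *Ago3* and *Ago4*. The RNA came from HT22, an immortalized mouse line of hippocampal origin, and the study asked which mRNAs change when GAS5, a long non-coding RNA, is depleted by siRNA. By the protocol, all cells were transfected with 10 nM siRNA through the same reagent, INTERFERin, and were collected 48 h later. The KD group is 1 library with GAS5 siRNA210 and 2 libraries with GAS5 siRNA596, and the NC group is 2 libraries. The treatment label of NC reads untreated, but the sample titles give NC and the protocol names an NC siRNA. NC was therefore taken as NC siRNA. On that reading the effect of transfection itself is shared by both groups and cannot be read from these data. No label says whether replicates were separate cultures, so *P*-values measure only the spread between these libraries, and siRNA210 has no replicate. The library totals ran from 30660265 to 36492134 counts.

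MicroRNAs are cut from long nuclear transcripts by the Microprocessor, in which Drosha is the RNase III enzyme and Dgcr8 the RNA-binding partner. The hairpin that is released leaves the nucleus with Exportin-5, the product of *Xpo5*, and is cut again by Dicer, which works with the double-stranded RNA-binding proteins encoded by *Tarbp2* and *Prkra*. One strand of the duplex is then held by an Argonaute, which represses matching mRNAs. Synthetic siRNAs skip the nuclear steps but need an Argonaute, and in mammals it is Ago2 that cleaves well-matched targets. The Argonaute genes measured here therefore encode the proteins through which the siRNAs of both groups act.

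The Argonautes differ at the last residue of the catalytic tetrad of the slicer domain. The 60 coding bases around that codon are shown for each gene because they separate the Argonautes by a feature that expression values do not carry. They were read from the GENCODE M21 transcripts of GRCm38, 5′ to 3′ on the minus strand, and lie within exon 18 of 19, or exon 17 of 18 in *Ago4*. Capitals mark the codon.
Ago1, chr4:126439865-126439924: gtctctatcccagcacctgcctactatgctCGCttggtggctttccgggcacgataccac
Ago2, chr15:73107188-73107247: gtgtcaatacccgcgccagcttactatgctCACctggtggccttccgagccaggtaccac
Ago3, chr4:126346654-126346713: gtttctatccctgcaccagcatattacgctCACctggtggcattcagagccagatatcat
Ago4, chr4:126496772-126496831: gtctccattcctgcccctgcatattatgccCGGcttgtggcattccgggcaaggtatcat

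The codon reads histidine at residue 808 in both *Ago2* and *Ago3*, and arginine at residue 805 in *Ago1* and 809 in *Ago4*. Histidine completes the tetrad, although Ago3 is known to cleave only with particular guides. The encoded proteins have 857, 860, 860 and 861 residues in the order *Ago1* to *Ago4*. Identity with Ago2 was 82.8% for Ago1 over 856 aligned residues, 81.2% for Ago3 over 850 and 79.0% for Ago4 over 848. In the windows 46, 47 and 43 of the 60 bases of *Ago1*, *Ago3* and *Ago4* equal those of *Ago2*. How reads that map to several places were counted is not given in the sources used here. *Ago1*, *Ago3* and *Ago4* lie in a row on chromosome 4, and *Ago2* lies on chromosome 15.

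*Dgcr8* carries a microRNA within its own coding exons, on its own strand of chromosome 16. Both mature sequences are shown because the mRNA of a Microprocessor subunit holds a microRNA hairpin. They are from RefSeq on GRCm38.p6, and capitals mark the seed, bases 2 to 8.
mmu-miR-1306-5p, chr16:18284288-18284310: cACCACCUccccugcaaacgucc
mmu-miR-1306-3p, chr16:18284248-18284268: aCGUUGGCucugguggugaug

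The arms have different seeds. The annotated *Mir1306* gene was listed at 0 in all 5 libraries, so any reads from these bases were not counted to it. Mature microRNAs were not measured, since the libraries were made from poly(A) RNA.

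All 10 are annotated as protein-coding on GRCm38. On the plus strand lie *Drosha* (ENSMUSG00000022191) at chr15:12824815-12935291, *Xpo5* (ENSMUSG00000067150) at chr17:46202782-46243598 and *Tarbp2* (ENSMUSG00000023051) at chr15:102518192-102523676. On the minus strand lie *Dgcr8* (ENSMUSG00000022718) at chr16:18253948-18289246, *Dicer1* (ENSMUSG00000041415) at chr12:104687742-104751952 and *Prkra* (ENSMUSG00000002731) at chr2:76629898-76648015. The Argonautes are also on the minus strand, with *Ago1* (ENSMUSG00000041530) at chr4:126435012-126468583 and *Ago2* (ENSMUSG00000036698) at chr15:73095844-73184935. Their relatives are *Ago3* (ENSMUSG00000028842) at chr4:126331704-126429556 and *Ago4* (ENSMUSG00000042500) at chr4:126489541-126533472.

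One library stands apart and bears on every value that follows. In the library labelled siRNA596 replicate 2, 3427 of the 10573 genes whose mean reached 5 CPM (counts scaled to library size by TMM) were more than 2-fold from the mean of the other 4 libraries. The same count was between 0 and 69 genes for each of the others. *Gas5*, the targeted gene, stood at 90.3 and 76.0 CPM in the NC libraries, 59.6 CPM with siRNA210 and 65.8 CPM in siRNA596 replicate 1. It stood at 179 CPM in the library labelled siRNA596 replicate 2, against its label. Values in that library moved with transcript length over all genes, as described below. The log2 fold change of *Gas5* between KD and NC was -0.41 (standard error 0.11, unadjusted *P* = 0.00377, adjusted *P* = 0.967, edgeR) without that library and 0.29 with it. The 4 remaining libraries are used first below and all 5 are given beside them. In the 4, KD is 1 library of each siRNA. Their *P*-values and intervals take the siRNAs as replicates of KD, and neither siRNA has a replicate there. The 9 neuronal markers examined did not describe a mature neuron. *Tubb3* and *Map2* were present, 7 of the 9 stayed under 1 CPM and 4 were listed at 0 throughout. Of the 3 fibroblast markers *Col1a1* (2974 to 4413 CPM) and *Col1a2* were high and *Dcn* stayed under 1 CPM, and of the 3 progenitor markers *Nes* and *Vim* were high and *Sox2* was listed at 0. The summed level of the neuronal markers was 94.0 to 102 CPM in the 4 libraries and 51.0 CPM in the library that stands apart, most of it *Map2* (68.8 to 86.9 CPM, then 31.5), while *Tubb3* at 18.8 CPM stayed within the 14.9 to 27.1 CPM of the others. The progenitor sum was 2993 to 3675 CPM and then 4829 CPM, and the fibroblast sum 4616 to 5200 CPM and then 3816 CPM. The part of cell types in the results was not tested, nor was that of transcript length in the marker sums of that library. In bulk RNA, fewer cells of a type and less RNA per cell cannot be told apart.

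In HT22 cells 9 of the 10 genes had counts, and *Ago4* was listed at 0 in every library. Levels between genes are compared as CPM per kilobase of annotated exon. By NC mean, the 9 genes spanned the 54.3rd to the 82.3rd percentile of the 15322 protein-coding genes with a count in NC. The NC means (SD, n = 2) were 19.8 ± 4.48 for *Xpo5*, 19.3 ± 0.0296 for *Drosha* and 18.3 ± 0.418 for *Ago2*. Below them came *Ago1* at 16.0 ± 0.604, *Prkra* at 14.3 ± 0.156 and *Tarbp2* at 13.6 ± 0.445. A lower tier held *Dgcr8* at 7.13 ± 0.664, *Ago3* at 5.61 ± 0.0271 and *Dicer1* at 5.59 ± 0.711. *Xpo5* could not be ordered against *Drosha* or *Ago2*, nor *Ago3* against *Dicer1*, within the spread of the NC libraries. The lower tier did not overlap the upper one in either NC library. When the longest annotated transcript was used as the length, *Tarbp2* moved from place 6 to place 3, at 22.7 ± 0.740 CPM per kilobase, while *Xpo5* and *Drosha* stayed first and second. The same 3 genes, *Dgcr8*, *Dicer1* and *Ago3*, stayed lowest of the 9.

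**Figure D1:**
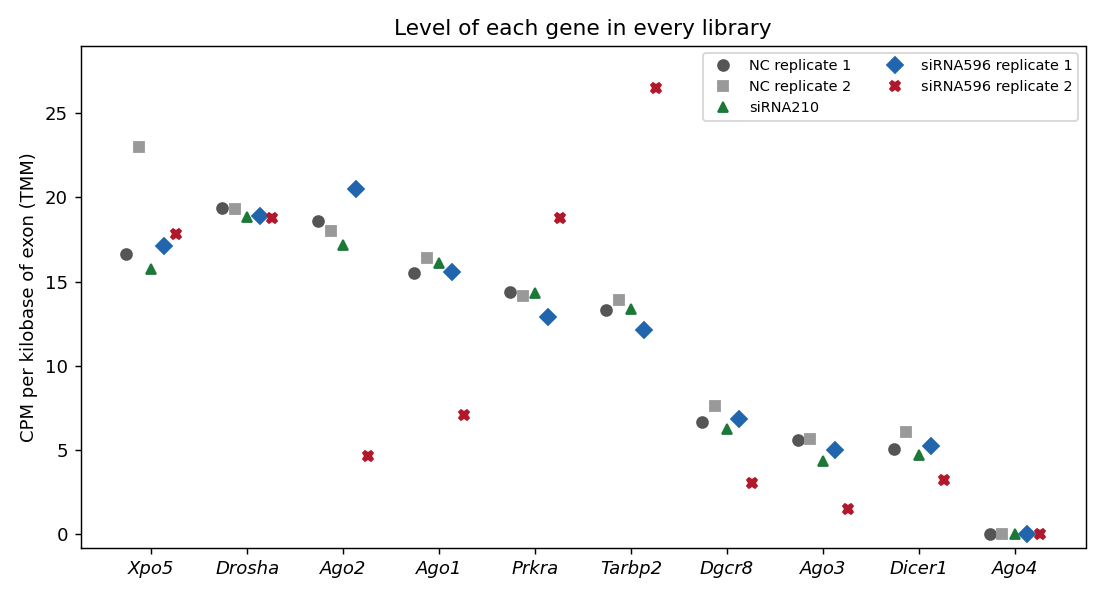
Level of each of the 10 genes, as CPM per kilobase of annotated exon after TMM scaling, in each of the 5 libraries (1 point per library, no error bars). The 4 libraries of NC, siRNA210 and siRNA596 replicate 1 lie close together for each gene, with NC replicate 2 set apart at 23.0 for *Xpo5*, whereas the library labelled siRNA596 replicate 2 lies low for *Ago1*, *Ago2*, *Ago3*, *Dgcr8* and *Dicer1* and high for *Tarbp2* and *Prkra*.

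The Microprocessor genes did not pass the test between KD and NC, and *Dgcr8* was low in the library that stands apart. *Drosha* counts were 4041 and 4398 in NC, 3999 with siRNA210, 4019 in siRNA596 replicate 1 and 2945 in siRNA596 replicate 2. In CPM these were 115, 115, 112, 112 and 111. *Drosha* thus stayed within 111 to 115 CPM in all 5 libraries. Both KD libraries of the first 4 lay just below both NC libraries, as in 16.2% of all genes. Its log2 fold change was -0.036 (standard error 0.077, 95% interval -0.21 to 0.14, unadjusted *P* = 0.647, adjusted *P* = 0.978, edgeR) and -0.037 with all 5 libraries.

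*Dgcr8* had 1804 and 2245 counts in NC, 1718 with siRNA210, 1878 in siRNA596 replicate 1 and 615 in siRNA596 replicate 2. In CPM these were 51.3, 58.5, 48.0, 52.5 and 23.3. The groups overlapped in the first 4 libraries and the last stood far below both. This gave a log2 fold change of -0.13 (standard error 0.10, 95% interval -0.37 to 0.11, unadjusted *P* = 0.246, adjusted *P* = 0.967, edgeR) and -0.41 with all 5 libraries. Of the exon bases of *Dgcr8* 17.1% are shared with other annotated genes, 825 of them with *Trmt2a* on the opposite strand. The strand setting of the counting is not given in the sources used here, so reads from these bases cannot be assigned. *Trmt2a* itself had a log2 fold change of -0.029 and was higher, at 124 CPM, in siRNA596 replicate 2 than in any other library. Per kilobase, *Drosha* stood at 2.90 and 2.54 times *Dgcr8* in NC, 3.02 times with siRNA210 and 2.78 times in siRNA596 replicate 1, so the ratio overlapped between groups. In siRNA596 replicate 2 it was 6.21.

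*Xpo5*, the exporter, was the member whose NC libraries differed most. It had 4021 and 6054 counts in NC, 3867 with siRNA210, 4198 in siRNA596 replicate 1 and 3228 in siRNA596 replicate 2, or 114, 158, 108, 117 and 122 CPM. NC replicate 2 was high by a log2 difference of 0.47 from NC replicate 1, which lay between the siRNA210 and siRNA596 libraries. The log2 fold change was -0.27 (standard error 0.14, 95% interval -0.58 to 0.034, unadjusted *P* = 0.0748, adjusted *P* = 0.967, edgeR) and -0.23 with all 5 libraries. It was -0.49 (unadjusted *P* = 0.00381) without NC replicate 1, where 16.5% of all genes passed an unadjusted *P* of 0.05, and -0.020 (unadjusted *P* = 0.811) without NC replicate 2, so 1 NC library set its size.

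*Dicer1*, the cytoplasmic RNase III enzyme, was lowest with siRNA210 among the first 4 libraries. Its counts were 3000 and 3919 in NC, 2803 with siRNA210, 3138 in siRNA596 replicate 1 and 1418 in siRNA596 replicate 2, or 85.2, 102, 78.3, 87.6 and 53.7 CPM. siRNA596 replicate 1 lay between the NC libraries, so the groups overlapped. The log2 fold change was -0.18 (standard error 0.11, 95% interval -0.42 to 0.065, unadjusted *P* = 0.132, adjusted *P* = 0.967, edgeR) and -0.36 with all 5 libraries. Without NC replicate 1, and with the same 16.5% of all genes past the threshold, it was -0.30 (unadjusted *P* = 0.0349), and without NC replicate 2 it was -0.038 (unadjusted *P* = 0.707).

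The partners of Dicer showed a smaller difference between groups. *Tarbp2*, which encodes TRBP, had 2130 and 2433 counts in NC, 2175 with siRNA210, 1972 in siRNA596 replicate 1 and 3187 in siRNA596 replicate 2. In CPM these were 60.5, 63.4, 60.8, 55.1 and 121. Its log2 fold change was -0.099 (standard error 0.094, 95% interval -0.31 to 0.11, unadjusted *P* = 0.318, adjusted *P* = 0.969, edgeR). *Prkra*, which encodes PACT, had 1027 and 1103 counts in NC, 1041 with siRNA210, 936 in siRNA596 replicate 1 and 1006 in siRNA596 replicate 2. It lay at 26.1 to 29.2 CPM in the first 4 libraries and at 38.1 CPM in the last. Its log2 fold change was -0.070 (standard error 0.11, 95% interval -0.33 to 0.19, unadjusted *P* = 0.549, adjusted *P* = 0.977, edgeR). Both genes overlapped between groups in the 4 libraries, and both turned positive with all 5, at 0.35 for *Tarbp2* and 0.10 for *Prkra*. The summed level per kilobase of the partners was 5.44 and 4.61 times that of *Dicer1* in NC, 5.92 times with siRNA210 and 4.78 times in siRNA596 replicate 1. The ratio was 14.1 in siRNA596 replicate 2, the only library outside the range of 4.61 to 5.92. Differences in that library moved with transcript length, as described below. With the longest transcript as the length the first 4 ratios ran from 3.96 to 5.06.

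*Ago2*, which encodes the slicing Argonaute, had more reads than any other member in the 4 libraries. It had 9176 and 9690 counts in NC, 8641 with siRNA210, 10309 in siRNA596 replicate 1 and 1723 in siRNA596 replicate 2, or 261, 252, 241, 288 and 65.2 CPM. The siRNA210 library lay below both NC libraries and siRNA596 replicate 1 above both. KD relative to NC came to a log2 fold change of 0.043 (standard error 0.097, 95% interval -0.18 to 0.26, unadjusted *P* = 0.669, adjusted *P* = 0.978, edgeR). It was -0.37 with all 5 libraries and -0.092 without siRNA596 replicate 1, so adding the one siRNA596 library or removing the other turned its direction. *Ago2* shares 1.56% of its exon bases with *Chrac1*.

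*Ago1* had 4439 and 5108 counts in NC, 4676 with siRNA210, 4525 in siRNA596 replicate 1 and 1513 in siRNA596 replicate 2. In CPM these were 126, 133, 131, 126 and 57.3, and both KD libraries of the first 4 lay within the NC range. KD relative to NC stood at a log2 fold change of -0.014 (standard error 0.079, 95% interval -0.19 to 0.16, unadjusted *P* = 0.862, adjusted *P* = 0.990, edgeR) and -0.31 with all 5 libraries.

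*Ago3* was the one member past an unadjusted *P* of 0.05. It had 3259 and 3579 counts in NC, 2575 with siRNA210, 2956 in siRNA596 replicate 1 and 643 in siRNA596 replicate 2. In CPM these were 92.6, 93.2, 71.9, 82.6 and 24.3. The NC libraries were close together and both KD libraries of the first 4 lay below them, as in 16.2% of all genes. The last value is from the library that stands apart. There the log2 difference of *Ago3* was -0.15 once the length trend over all genes was subtracted. The means were 92.9 ± 0.449 CPM in NC (SD, n = 2) and 77.2 ± 7.52 CPM over the first 2 KD libraries (SD, n = 2). KD relative to NC gave a log2 fold change of -0.27 (standard error 0.092, 95% interval -0.48 to -0.060, unadjusted *P* = 0.0171, adjusted *P* = 0.967, edgeR), or 83.0% of NC. The difference therefore did not pass after adjustment over all genes. Against the NC mean it was -0.37 for siRNA210 and -0.17 for siRNA596 replicate 1. The unadjusted *P* was 0.0663 without NC replicate 1, 0.0728 without NC replicate 2 and 0.238 without siRNA210, and 0.0222 without siRNA596 replicate 1. With all 5 libraries the log2 fold change was -0.64 with an unadjusted *P* of 0.253.

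*Ago4* lies between *Ago1* and *Clspn* on chromosome 4 and shares no exon base with another annotated gene. Its 0 counts in each library allow at most 3 counts, or 0.0781 to 0.114 CPM per library and 0.0175 CPM over all 5 libraries together. These limits cover counting error only. Its neighbours had reads, with 4439 to 5108 counts for *Ago1* and 3431 to 4066 for *Clspn* in NC. The processed pseudogenes *Gm12934* and *Gm12935* within the *Ago4* locus were also listed at 0. *Ago4* was one of 5802 of 21974 protein-coding genes (26.4%) at 0 in all 5 libraries, and no change with GAS5 siRNA could be computed for it.

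As a share of the summed Argonaute level per kilobase, *Ago2* took 46.8% and 45.0% in NC, 45.7% with siRNA210 and 50.0% in siRNA596 replicate 1. *Ago1* took 39.1% and 41.0%, then 42.7% and 37.9%. *Ago3* took 14.1% in each NC library, 11.5% with siRNA210 and 12.1% in siRNA596 replicate 1. The NC mean for *Ago2* was 45.9% ± 1.29 (SD, n = 2), and that for *Ago1* was 40.0% ± 1.30. With the longest transcript as the length these were 43.8% and 42.2%, with *Ago3* far below both at 14.0%. With exon length the order was *Ago2*, *Ago1*, *Ago3* in each of the 4 libraries. With the longest transcript *Ago1* was ahead of *Ago2* in NC replicate 2, at 43.1% against 42.9%, and with siRNA210, at 45.0% against 43.5%, so the order of these genes depended on the length used. The summed Argonaute level of the 4 libraries was 37.6 to 41.1 CPM per kilobase. In siRNA596 replicate 2 the sum was 13.2, and *Ago1* led with 53.6% before *Ago2* with 35.3% and *Ago3* with 11.2%. Differences in that library moved with transcript length, as described below. The longest transcripts of *Ago1*, *Ago2* and *Ago3* have 7227, 13800 and 15595 bases. With the length trend over all genes subtracted, their log2 differences were -0.19, -0.44 and -0.15. The part of length in these shares was not tested.

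**Figure D2:**
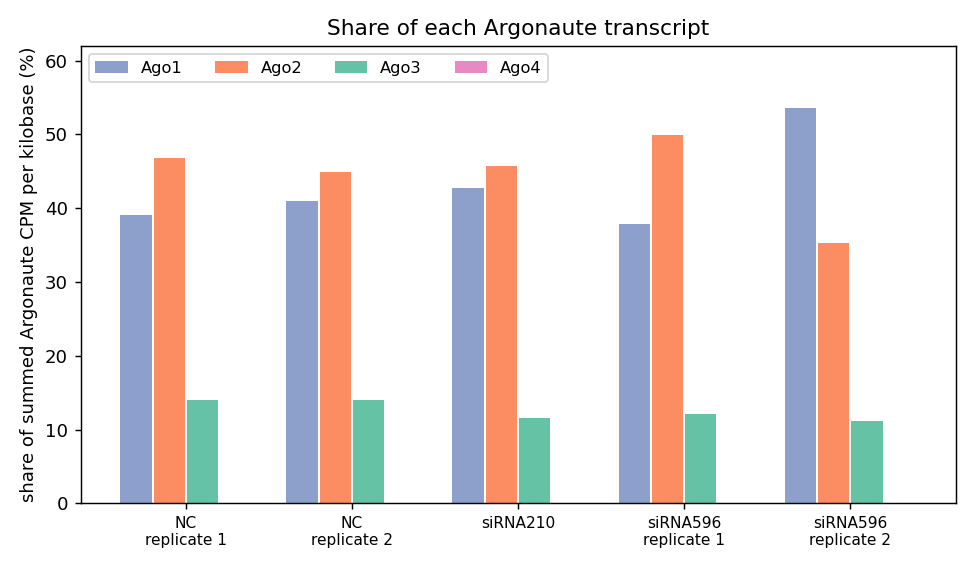
Share of each Argonaute gene in the summed Argonaute level (CPM per kilobase of exon, percent) in each of the 5 libraries, 1 bar per gene and no error bars. *Ago2* is the tallest bar in 4 libraries, from 45.0% to 50.0%, *Ago1* is the tallest in siRNA596 replicate 2 at 53.6%, and *Ago4* is at 0 in every library. Differences in siRNA596 replicate 2 moved with transcript length.

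Over the 9 members tested, 1 passed an unadjusted *P* of 0.05 with the 4 libraries, *Ago3*, which was lower. Of all 15867 genes tested 523 (3.30%) did, 277 higher (1.75%) and 246 lower (1.55%). No member passed an adjusted *P* of 0.05 in edgeR or DESeq2. Of all genes 0 did so in edgeR and 1 in DESeq2, the predicted gene *Gm7336*, named after its value was seen. With all 5 libraries 0 members passed an unadjusted *P* of 0.05, against 60 of 16142 genes (0.372%). The median log2 fold change was -0.099 over the members and -0.0023 over all genes. Of the members 1 of 9, *Ago2*, lay above 0, against 49.5% of all genes. The KD libraries of the 4 both lay below both NC libraries in 2 of 9 members, *Ago3* and *Drosha*, as in 16.2% of all genes. They both lay above in 0 members, against 16.7% of all genes. Relative to the NC mean, 7 of 9 members were lower with siRNA210 (median -0.088) and 8 of 9 in siRNA596 replicate 1 (median -0.096). These values share their NC libraries, which differed as well. In NC replicate 2 against NC replicate 1, 3 of 9 members were below 0 (median 0.067). The share of all genes below 0 was not computed for these comparisons, so their counts show no shift particular to the members. The 95% intervals of the log2 fold changes exclude a 2-fold change in either direction for each of the 9 genes with the 4 libraries. The widest, that of *Xpo5*, reached from 0.668 to 1.02 times NC. This holds for the 4 libraries only. With all 5 the standard errors were larger, at 0.51 for *Ago3* (log2 fold change -0.64) and 0.59 for *Ago2* (-0.37), and no interval is given.

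**Figure D3:**
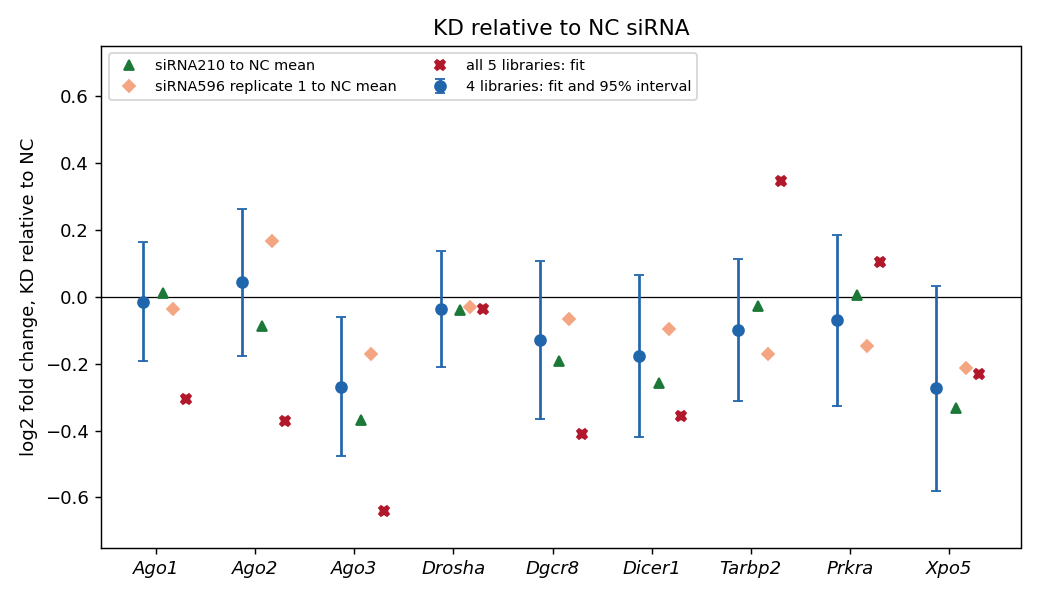
Log2 fold change of KD relative to NC for the 9 genes with counts, where circles with bars are the 4-library edgeR estimate and its 95% interval, triangles and diamonds are siRNA210 and siRNA596 replicate 1 against the NC mean, and crosses are the estimate with all 5 libraries. The interval of *Ago3* lies below 0, from -0.48 to -0.060, the other 8 intervals span 0, and the crosses of *Ago1*, *Ago2*, *Ago3*, *Dgcr8* and *Tarbp2* lie outside the 4-library intervals.

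In the library labelled siRNA596 replicate 2 the members did not move together. Against the mean of the other 4 libraries *Ago2* stood at 25.0% (log2 difference -2.00), *Ago3* at 28.6% (-1.81), *Dgcr8* at 44.3% (-1.17) and *Ago1* at 44.4% (-1.17). These 4 of the 9 members were more than 2-fold lower, against 16.4% of all genes. *Tarbp2* alone was more than 2-fold higher, at 201% (1.01), against 16.0% of all genes, and lay just inside that threshold. Against the NC libraries alone it was 0.96 and no longer past 2-fold. *Dicer1* stood at 60.8% (-0.72) and *Prkra* at 135% (0.43), while *Drosha* (98.4%) and *Xpo5* (98.3%) were near the other libraries. Before transcript length was considered, *Drosha* and *Dgcr8* parted in this library, as did *Dicer1* and the genes of its partners. With the length trend over all genes subtracted, *Drosha* and *Dgcr8* stood at 0.35 and -0.88. *Dicer1* and *Tarbp2* were then both above 0, at 0.55 and 0.73, and *Prkra* was at -0.43. With 1 library these values have no test.

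Transcript length moved with these differences. Over the 10573 genes the Spearman correlation between the longest annotated transcript and the log2 difference was -0.69, a description across genes that share 1 library. In the length decile with the shortest transcripts (median 983 bases) the median log2 difference was 1.32, and in the decile with the longest (median 8380.5 bases) it was -1.19. *Gas5*, with a longest transcript of 2556 bases, stood at 1.30. The deciles with median lengths of 2244 and 2773 bases had medians of 0.51 and 0.27 and upper quartiles of 0.87 and 0.64. The part of length in the value of *Gas5* was not tested. *Ago1*, *Ago2*, *Ago3* and *Dicer1*, with transcripts of 7227, 13800, 15595 and 9851 bases, all fall in the longest decile. *Prkra* at 1614 bases and *Tarbp2* at 2732 bases are the shortest members. Across the 9 members the Spearman correlation was -0.78. When the trend with length over all genes was subtracted, none of the members was more than 2-fold apart, while 1385 of the 10573 genes still were. The remaining log2 differences were -0.19 for *Ago1*, -0.44 for *Ago2* and -0.15 for *Ago3*. *Dgcr8*, at 4320 bases, kept the most, at -0.88, and *Tarbp2* kept 0.73. *Dicer1*, *Drosha* and *Xpo5* then stood above 0, at 0.55, 0.35 and 0.51, and *Prkra* at -0.43. RNA quality was not measured in the files, and its part in the length pattern was not tested. Between KD and NC in the 4 libraries the correlation of the log2 fold change with length was -0.12, and its part in the values of *Ago3* was not tested.

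**Figure D4:**
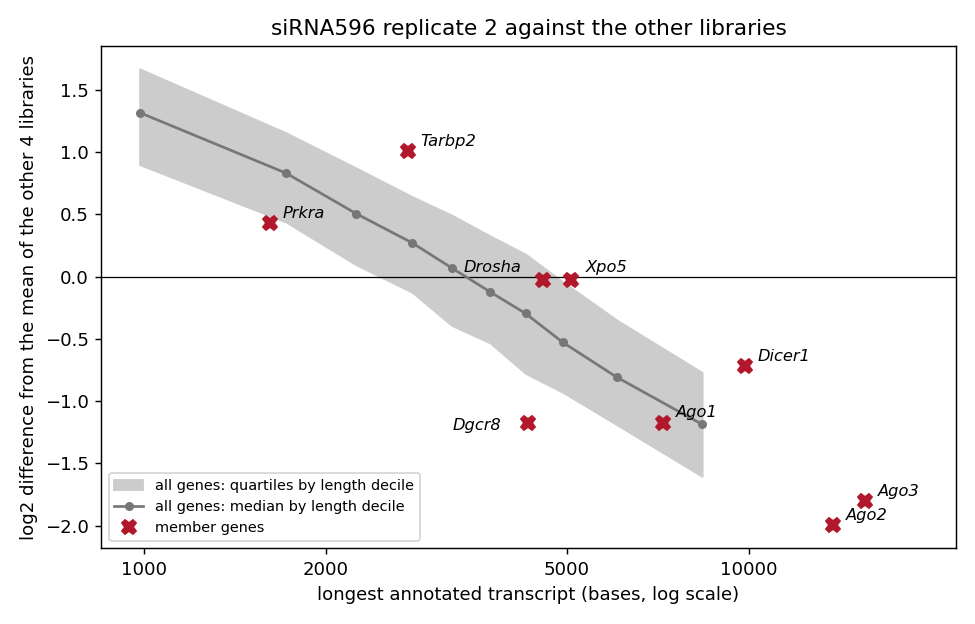
Log2 difference of the library labelled siRNA596 replicate 2 from the mean of the other 4 libraries against the longest annotated transcript (bases, log axis). The grey line and band are the median and quartiles of all 10573 genes by length decile and the crosses are the 9 member genes. The line falls from 1.32 to -1.19. *Ago2* and *Ago3* lie at the lower right at -2.00 and -1.81, below the lower quartile of -1.60 of the longest decile. *Dgcr8* lies below the band and *Tarbp2* above it. Against its own length decile, *Dicer1* at -0.72 is above the upper quartile of -0.77. *Drosha* at -0.024 and *Xpo5* at -0.025 are just above theirs of -0.041. *Prkra* at 0.429 is just below its lower quartile of 0.438, and *Ago1* is within its quartiles.

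The genes that work beside the members were examined in 7 lists of 71 genes, of which 63 could be tested. With the 4 libraries 1 of the 63 passed an unadjusted *P* of 0.05, against 3.30% of all genes. The median log2 fold change was -0.057, with 22 genes (34.9%) above 0, against 49.5% of all genes. The gene that passed was *Tent2*, a cytoplasmic poly(A) polymerase that extends some microRNAs. Its counts were 2002 and 2334 in NC, 1818 with siRNA210, 1832 in siRNA596 replicate 1 and 1378 in siRNA596 replicate 2. For *Tent2* both KD libraries of the 4 lay below both NC libraries, as in 16.2% of all genes. Its log2 fold change was -0.21 (standard error 0.092, unadjusted *P* = 0.0478, adjusted *P* = 0.967, edgeR), and DESeq2 did not call it. With all 5 libraries none of the 63 passed an unadjusted *P* of 0.05, against 0.372% of all genes.

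The Microprocessor cofactors were led in NC by *Ddx5* (927 CPM) and *Ddx17* (839 CPM), helicases of the complex, and by *Khsrp* (301 CPM), which binds precursor loops. Their log2 fold changes were -0.047, 0.0079 and -0.015, and 0 of 6 genes passed. The export partners *Ran*, the GTPase that Exportin-5 binds, *Rangap1* and *Xpo1* had log2 fold changes of -0.082, 0.066 and -0.074, and 0 of 6 passed. Neither list held a gene past the threshold, and their medians were -0.059 and -0.080.

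Argonautes are loaded with the help of heat shock proteins, which led their own list. *Hsp90ab1* stood at 3285 CPM in NC, *Hspa8* at 1726 and *Hsp90aa1* at 951, with log2 fold changes of 0.053, 0.073 and 0.098. Of the 13 genes for loading and strand removal 7 lay above 0, the median was 0.018 and none passed. Downstream of the Argonautes, the 16 genes of the GW182 scaffolds and of deadenylation had a median of -0.069, with 4 above 0 and none past the threshold. *Cnot6*, a deadenylase, came nearest at -0.19 (unadjusted *P* = 0.0542), and *Pabpc1* and *Cnot1* stood at 0.064 and -0.050. The 11 genes of decapping and decay had a median of -0.067 with 2 above 0 and none past the threshold. Their most abundant genes, *Ddx6*, *Dcp2* and *Edc4*, had log2 fold changes of -0.092, -0.10 and -0.014.

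Of the 11 genes for tailing, trimming and editing 9 were tested, with a median of 0.00054 and 5 above 0. *Lin28a* and *Lin28b*, which block the maturation of let-7, were listed at 0 in all libraries. *Zswim8*, which takes part in target-directed microRNA decay, was the most abundant at 251 CPM in NC with a log2 fold change of -0.057, and *Tut7* and *Adar* stood at -0.042 and -0.059. The germline genes of the piRNA pathway served as a contrast from another tissue. All 8 stayed under 1 CPM in every library and 2 could be tested, *Piwil2* at 2 to 18 counts and *Piwil4* at 3 to 23 counts. Neither they nor *Tdrd9*, which had 4 to 20 counts, gave a readable change at this depth. In the library labelled siRNA596 replicate 2, 10 of 60 list genes were more than 2-fold lower and 5 more than 2-fold higher than in the other 4, against 16.4% and 16.0% of all genes. The lower genes included 5 of the 16 for GW182 and deadenylation and 3 of the 9 for tailing, trimming and editing. Their longest transcripts had 5736 to 17332 bases. The higher ones included 3 of the 13 for loading and strand removal, with longest transcripts of 2252 to 3158 bases. The part of transcript length in these counts was not tested.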

How the data were processed

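mRNA of HT22 cells was sequenced in 5 libraries. The counts deposited by the authors are whole reads per gene, made with Trimmomatic, HISAT2 2.1.0 on GRCm38, SAMtools 1.7 and featureCounts 2.0.1, with no normalization. The authors' deposited comparison table holds fold changes and *P*-values, which were not used, and a mean signal per gene (counts over DESeq2 1.26.0 size factors). Its means matched the 4 libraries used first here within 0.0977% over 15412 genes and differed by up to 345% with all 5. Genes passing filterByExpr were tested with the quasi-likelihood test of edgeR 4.0.16 (R 4.3.3) on TMM-scaled counts, with Benjamini-Hochberg adjustment over all genes tested. The step was tested on simulated counts with the same dispersion for every gene and no library standing apart. That run does not cover the differences between libraries seen here. Alternatives included DESeq2 1.42.0, other filters and each library left out. Names and exon lengths came from GENCODE M21, which named 99.5% of genes, and sequences from its transcripts and RefSeq. Proteins were aligned with Biopython 1.88. The members, the lists and the choice of 4 libraries were made with earlier results of these data known. Named genes are *Gas5*, the members, and from each list genes past an unadjusted *P* of 0.05 and the 3 most abundant in NC, while neighbours, marker genes, *Trmt2a* and *Gm7336* were named after their values were seen.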

Additional observations from a re-analysis of the deposited data

How the results depend on the processing

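Genes past an unadjusted *P* of 0.05 numbered 523 with the 4 libraries, 60 with all 5, 924 with no filter, and 170 (without siRNA210) to 2776 (without NC replicate 1) when each library was left out. An adjusted *P* of 0.05 was passed by 0 genes in edgeR and 1 in DESeq2, and by 0 to 1 with a library left out. Members past the unadjusted threshold numbered 1, against 0 with all 5 libraries and 2 with no filter, where *Xpo5* was added, and 0 to 2 with a library left out. List genes past it numbered 1, against 0 with all 5 libraries or DESeq2, 3 with at least 10 counts in every library, and 0 to 10 with a library left out. With all 5 libraries *Ago2*, *Tarbp2* and *Prkra* changed sign, to -0.37, 0.35 and 0.10. With each library left out *Ago1* ranged from -0.053 to 0.027, *Ago2* from -0.092 to 0.16 and *Prkra* from -0.15 to 0.0023. The correlation between the deviations of siRNA596 replicate 1 and NC replicate 1 from their group means was 0.089 over 16142 genes. It rests on 1 pair and includes the library that stands apart, so the replicate numbers were not taken to pair the libraries and pairing was not shown either way. For siRNA596 against NC, 41 genes passed without a replicate block and 428 with it, and 0 members and 0 list genes in either. There *Ago2*, *Tarbp2* and *Prkra* stood at -0.54, 0.51 and 0.15 without the replicate block and at -0.90, 0.40 and 0.13 with it. With the length trend removed, 1385 genes and 0 members were past 2-fold in siRNA596 replicate 2. With library size only as the scaling *Tarbp2* stood at 0.74 in that library, and against the NC libraries at 0.96, neither past 2-fold. The *Ago2* share was 43.8% with the longest transcript as length. The cause of these changes was not tested. *Drosha* stayed between -0.042 and -0.032 in all 11 alternatives.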
